A study of Mus musculus with 6 samples.

Results

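Of the regions called in mSin3A ChIP-seq of CD8 T cells, nearly as many were called in 1 library only as in several. Islands of enriched signal from 4 ChIP-seq libraries were merged where they shared a base or touched, which gave 23510 regions, and 11302 of these (48.1%) held an island from exactly 1 library. These single-library regions were chosen by the calls themselves, so their number and their absence from the other lists describe the selection and carry no test. Each is 1 island of 1 list. The other merged regions were called in 2 libraries (3996), in 3 (2575) or in all 4 (5637).

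The cells were splenic T cells, sorted as TCRbeta high and CD8+. They came from wild-type (WT) mice, which the study also calls controls, or from Tcf1-/-Lef1-/- mice, named deficient here, in which CD4-Cre had deleted both genes. Cre driven from Cd4 sequences acts during thymic development, so the factors were missing from T cells and not from the whole animal. Each genotype has 1 mSin3A library in condition 1, 1 in condition 2 and 1 input. What sets condition 1 apart from condition 2 is not given in the sources, and neither are the number and age of the mice or whether the controls carried Cre. The inputs were not analysed here. No expression was measured, so the sorted phenotype could not be checked against markers.

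mSin3A is the scaffold of a co-repressor complex that carries the histone deacetylases HDAC1 and HDAC2. It has no known sequence-specific DNA binding of its own and is brought to chromatin by transcription factors and other adaptors, mostly near active or poised gene starts. Tcf1 and Lef1 are HMG-box factors of the T cell lineage that bind DNA directly, work with beta-catenin or with Groucho/TLE co-repressors, and help to keep CD8 T cell identity. The study asked how their loss alters where mSin3A is found. The lists are on the mouse build mm9, for which no genome or annotation was used here, so regions are given by position, without gene names or sequences. Printed starts are counted from 1, whereas widths and distances use the deposited starts, which are 1 lower.

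Single-library regions were most numerous in condition 1 and about equally numerous in both genotypes. WT condition 1 alone gave 3615 (15.4% of all merged regions) and deficient condition 1 alone 3446 (14.7%). WT condition 2 alone gave 2180 (9.27%) and deficient condition 2 alone 2061 (8.77%). As a share of each list, they made up 27.0% of the 13397 islands of WT condition 1 (Wilson 95% interval 26.2 to 27.7) and 19.5% of the 11151 islands of WT condition 2 (18.8 to 20.3). In the deficient lists the shares were lower, 21.6% of 15954 islands in condition 1 (21.0 to 22.2) and 15.2% of 13556 islands in condition 2 (14.6 to 15.8). Intervals throughout cover counting error only, and with 1 library in each group no difference between groups has a replicate check or a test.

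**Figure D1:**
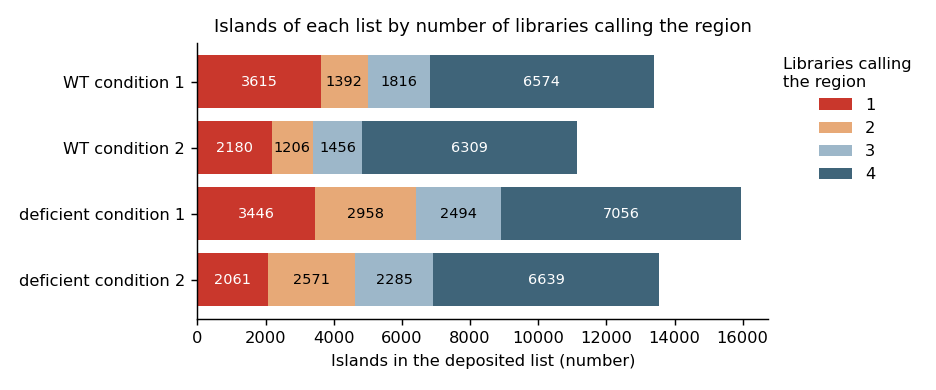
Number of islands in each deposited list (x axis), split by how many of the 4 libraries called the merged region that holds the island (colours, with the counts printed in the bars). The red part, islands called in no other library, runs from 2061 in deficient condition 2 to 3615 in WT condition 1, whereas islands in regions of 2 libraries are more numerous in both deficient lists (2958 and 2571) than in both WT lists (1392 and 1206).

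Among the islands of the other regions, those of 2 libraries made up a larger part of the deficient lists. Regions of exactly 2 libraries held 18.5% and 19.0% of the deficient lists, against 10.4% and 10.8% of the WT lists. Regions of 3 held 15.6% and 16.9% of the deficient and 13.6% and 13.1% of the WT lists, and regions of all 4 held 44.2% and 49.0% against 49.1% and 56.6%. Per condition, the deficient list had 0.953 times as many single-library regions as the WT list in condition 1 (exact 95% interval 0.910 to 0.999) and 0.945 times in condition 2 (0.890 to 1.00), although the deficient lists were 1.19 and 1.22 times as long. These ratios turned with the libraries and settings used. When deficient condition 2 was left out, deficient condition 1 had 5782 single-library regions in place of 3446, and the ratio in condition 1 was 1.47. When deficient condition 1 was left out, deficient condition 2 had 4296 in place of 2061, and the ratio in condition 2 was 1.68. With both libraries of the other condition left out, the ratios were 1.44 and 1.57. When only 2 lists are merged, each shared region takes islands from both. The longer list, here the deficient one, is then left with more single-library regions largely by construction. With only the 50% of islands with the most reads kept in each list, the ratios were 1.31 and 1.18, and in lists of equal length 0.494 and 0.490.

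Between conditions the number differed more, in proportion, than list length did. Condition 1 had 1.66 times as many single-library regions as condition 2 in WT cells (exact 95% interval 1.57 to 1.75) and 1.67 times in deficient cells (1.58 to 1.77), from lists that were 1.20 and 1.18 times as long. Islands of few reads were the most often single-library, so a longer list can add to this class more than in proportion. The 2 kinds of ratio set side by side are therefore no measure of an excess. With every list held to its 11151 islands of most reads, the length of the shortest list, the direction turned: the ratio was 0.822 for WT and 0.830 for deficient cells. With the 50% of most reads kept in each list it was 1.85 and 2.07. Which condition had more single-library regions therefore depended on how the lists were made comparable.

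Single-library regions were narrow and held few reads. Their median number of reads was 52 in WT condition 1, 59 in WT condition 2, 48 in deficient condition 1 and 58 in deficient condition 2. Islands in regions called in all 4 libraries held medians of 150, 168, 139 and 154 reads in the same order. Reads bear on whether an island is called at all, so this gap belongs to the way the regions were chosen. The reads rose with each further library that called the region: over the 4 lists together, the median was 53 reads for 1 library, 78 for 2, 107 for 3 and 152 for 4. The middle 80% of single-library regions lay between 35 and 102 reads, and those of all-library islands between 77 and 322 reads. Few reads therefore marked most single-library regions, but the ranges overlapped.

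The gap was also present between islands of the same width. Median widths of single-library regions were 2799, 3199, 2399 and 2999 bp in WT condition 1, WT condition 2, deficient condition 1 and deficient condition 2, against 4599, 4999, 3999 and 4599 bp for islands of regions called in all 4. Read density was nearly level between the lists, with single-library medians of 19.88, 20.01, 20.42 and 20.01 reads per kb, and 32.0, 32.4, 32.2 and 32.1 reads per kb for the all-library islands. At a width of 2 to under 3 kb, single-library islands of WT condition 1 held a median of 49 reads and all-library islands of that list 105 reads, a ratio of 0.467. The same comparison gave 51 and 110 reads in WT condition 2, 47 and 100 reads in deficient condition 1, and 52 and 105.5 reads in deficient condition 2. For islands of 6 to under 8 kb the ratio was higher, from 0.633 in WT condition 2 to 0.673 in WT condition 1.

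**Figure D2:**
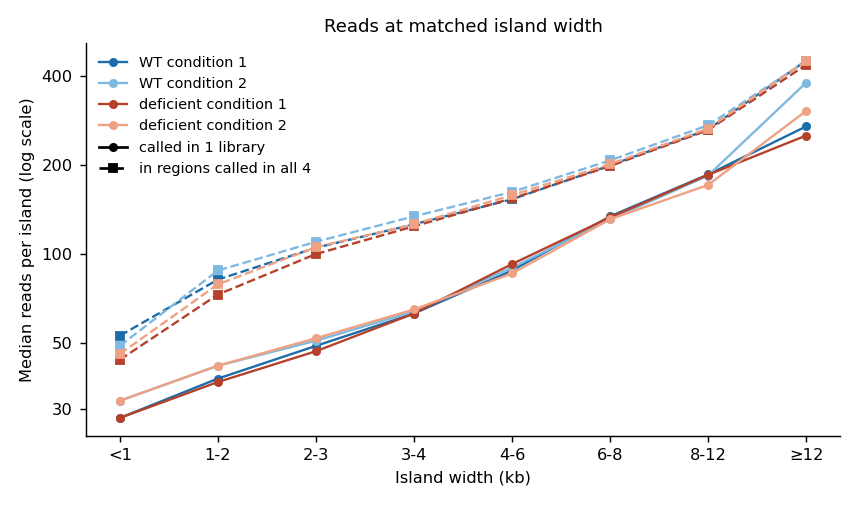
Median reads per island (y axis, log scale) for each class of island width in kb (x axis). Solid lines with circles are islands called in 1 library, dashed lines with squares are islands in regions called in all 4, and colours are the lists; at 6 to under 8 kb the 4 solid lines lie between 131 and 134 reads and the dashed lines between 198 and 207. The last class, 12 kb or more, holds only 3 to 12 single-library regions per list.

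In all 4 lists the share of single-library islands rose steeply towards the islands of fewest reads. Each list was divided into 10 equal parts by reads. In the part with the most reads the share was 1.27% in WT condition 1, 0.269% in WT condition 2, 0.940% in deficient condition 1 and 0.221% in deficient condition 2. In the part with the fewest it was 74.2%, 63.5%, 63.1% and 50.2%. The 4 parts of fewest reads held between 83.1% and 88.7% of the single-library regions of each list. Few of them reached the median reads of the all-library islands of their own list: 112 in WT condition 1, 49 in WT condition 2, 95 in deficient condition 1 and 41 in deficient condition 2.

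At the same number of reads and within the same condition, islands of the WT list were single-library more often than islands of the deficient list when all 4 libraries were merged. Among islands of 60 to 79 reads the share was 42.3% in WT condition 1 (Wilson 95% interval 39.9 to 44.8) and 42.0% in WT condition 2 (39.3 to 44.9). It was 25.4% in deficient condition 1 (23.6 to 27.4) and 28.4% in deficient condition 2 (26.4 to 30.6). Conditions of the same genotype lay close together in this class, and the genotypes did not overlap. At 40 to 59 reads the shares were 65.9% and 64.6% in WT and 46.7% and 47.4% in deficient cells. Below 40 reads the conditions separated as well, at 74.0% and 57.2% for the WT lists and 63.1% and 47.8% for the deficient lists.

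The deficient islands of that size that were not single-library had often been called again in the other deficient library and nowhere else. At 60 to 79 reads, 21.1% and 25.2% of deficient islands lay in regions of the deficient pair alone, against 9.15% and 13.4% of WT islands in regions of the WT pair alone. The difference in the single-library share was 16.9 percentage points in condition 1 (WT minus deficient, 95% interval 13.77 to 19.98) and 13.6 in condition 2 (10.1 to 17.1). Islands shared with the deficient partner alone count as single-library once that partner is left out, so leaving out 1 library moves this difference by construction. Without deficient condition 2 it was -1.90 points in condition 1, and without deficient condition 1 it was -7.09 points in condition 2. Without WT condition 2 it was 23.5 points in condition 1, and without WT condition 1 it was 24.2 points in condition 2. When both libraries of the other condition were left out, so that the WT and deficient lists of 1 condition were merged with each other only, it was -1.61 points in condition 1 and -1.36 points in condition 2. That setting takes away the same-genotype partner of both lists, so it too moves the difference by construction. The higher WT share was therefore seen with the libraries of both conditions merged. Whether it holds within 1 condition cannot be told from lists that lack these partners.

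**Figure D3:**
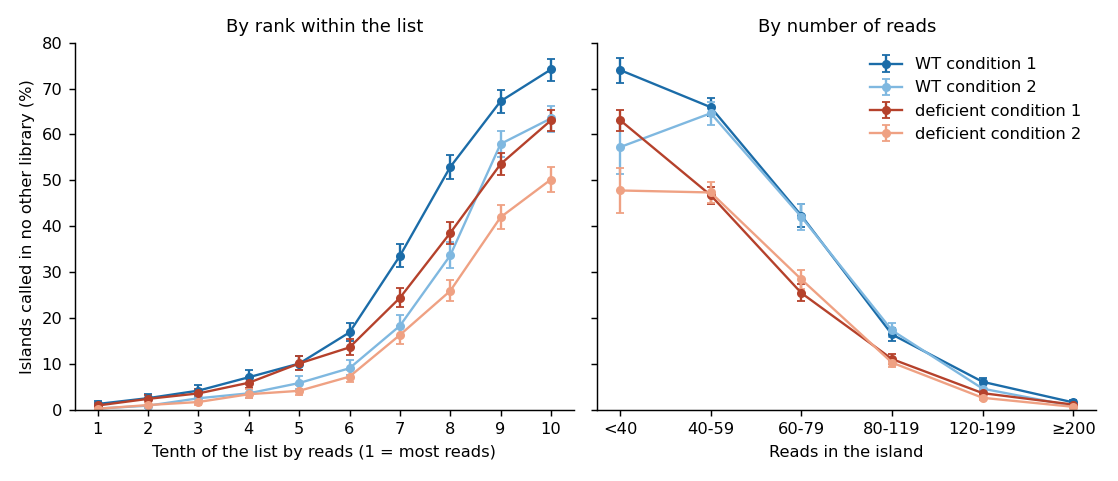
Share of islands called in no other library (y axis, %, with Wilson 95% intervals that cover counting error only) in 10 equal parts of the list from most to fewest reads (left) and by number of reads in the island (right), 1 line per list. On the left WT condition 1 ends highest, at 74.2%, and deficient condition 2 lowest, at 50.2%; on the right the WT lines meet at 42.3% and 42.0% for 60 to 79 reads, above the deficient lines at 25.4% and 28.4%.

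A few single-library regions were large. At least 200 reads were held by 37 of them in WT condition 1, 21 in WT condition 2, 22 in deficient condition 1 and 15 in deficient condition 2. In the same order, these were 1.61%, 0.799%, 1.13% and 0.649% of all islands with at least 200 reads in their list. The one with the most reads was called in WT condition 1, on chromosome 8 from 126072401 to 126147999, with 2427 reads over 75599 bp. It ranked 6 in its list, and its density of 32.1 reads per kb was that of an ordinary all-library island. A further single-library region of the same list, with 474 reads, ended 801 bp before it, the smallest gap found between islands of 1 list. The pair spanned 94199 bp and held 1.26% of all reads in the single-library regions of that library.

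The other libraries had calls around this domain but none inside it. On the side of lower coordinates, the other 3 libraries shared regions at 125965001 to 125971799 and at 125998401 to 126007199, which WT condition 1 lacked. Farther out on that side, WT condition 1 had 2 islands of its own, with 119 and 167 reads, and a region from 125895201 to 125905799 that both deficient libraries had called too and WT condition 2 had not. WT condition 2 had an island of its own with 73 reads at 126152201 to 126153999, just past the domain. On the far side the other 3 libraries again shared a region without WT condition 1, whose WT condition 2 island at 126378601 to 126385199 held 229 reads. The nearest region called in all 4 libraries lay 289 kb away. The read numbers of the other libraries inside the domain are unknown, because the lists give reads only for called islands, and the input there was not analysed.

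**Figure D4:**
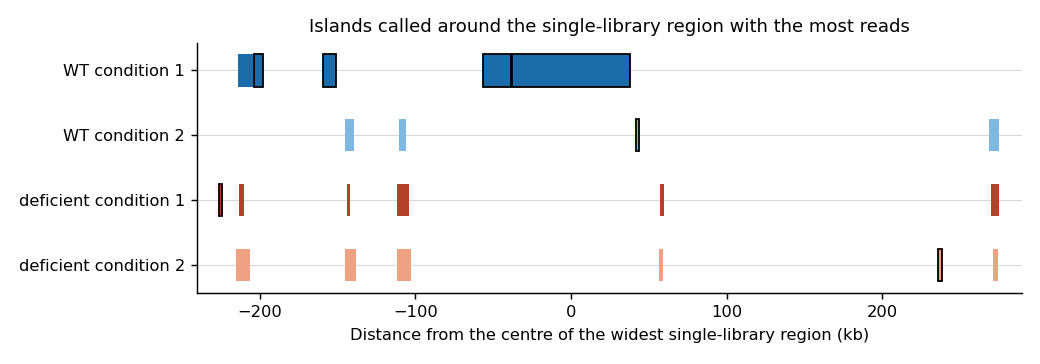
Islands of the 4 lists (rows) by distance in kb from the centre of the chromosome 8 region with 2427 reads. Black outlines mark islands called in no other library; the pair in WT condition 1 spans 94199 bp in which no other list has an island, and the regions shared by the other 3 libraries lie on both sides.

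The leading single-library region of WT condition 2, and that of deficient condition 1, were also long and of ordinary density. In WT condition 2 the first was chromosome 1, 85068201 to 85102799, with 1061 reads over 34599 bp (30.7 reads per kb). It was followed by chromosome 7, 25704001 to 25721199, with 406 reads, and chromosome 3, 96643801 to 96656799, with 351 reads. In deficient condition 1 the first was chromosome 14, 69941401 to 69976999, with 1082 reads over 35599 bp (30.4 reads per kb), ranked 14 in its list, while the next 2 of that list were short and dense and are given with the dense regions. Deficient condition 2 had no single-library region above 305 reads: its leading regions, at 19.5 to 22.6 reads per kb, were chromosome 11, 97810001 to 97823999, with 305 reads, chromosome 8, 114477601 to 114493199, its widest at 15599 bp, with 304 reads, and chromosome 7, 147386601 to 147397999, with 258 reads. The third region of WT condition 1 was chromosome 7, 71217001 to 71235599, with 771 reads at 41.5 reads per kb. At least 12 kb wide were 12 single-library regions in WT condition 1, 4 in WT condition 2, 4 in deficient condition 1 and 3 in deficient condition 2. They were 1.72%, 0.510%, 0.913% and 0.475% of all islands of that width in their lists. Wide regions called once were thus found in all 4 libraries, as a small part of the wide islands.

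Very dense islands were rare in every list. The single-library ones were mostly short, and the widths of the others were not compared. Above 100 reads per kb there were 2 single-library regions in WT condition 1, 0 in WT condition 2, 6 in deficient condition 1 and 1 in deficient condition 2. The same density was reached by 32, 21, 35 and 30 islands of the whole lists, which hold 13397, 11151, 15954 and 13556 islands. WT condition 1 had chromosome 17, 3075201 to 3085999, with 1855 reads over 10799 bp (172 reads per kb), which ranked 9 in its list, and 399 bp of chromosome 12 from 94815401 with 102 reads (256 reads per kb). In deficient condition 1 they included chromosome 2, 181651201 to 181654199, with 548 reads (183 reads per kb), chromosome 5, 147072401 to 147074399, with 393 reads (197 reads per kb), and 599 bp of chromosome 2 from 5300001 with 151 reads (252 reads per kb). Deficient condition 2 had 999 bp of chromosome 19 from 45724401 with 133 reads (133 reads per kb), and next 599 bp of chromosome 13 from 77847801 at 80.1 reads per kb. In WT condition 2 the densest were 199 bp of chromosome 14 from 96013801, the region of fewest reads in its list with 19, and 599 bp of chromosome 17 from 4626201 with 39 reads, at 95.5 and 65.1 reads per kb. Densities of this kind on so short a stretch rest on few windows of 200 bp, and whether the input was dense there as well was not tested.

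Most single-library regions had no region of another library within 2 kb. The median distance to the nearest region called by another library was 13.8 kb, and 13.1% of them (1480, Wilson 95% interval 12.5 to 13.7) lay within 2 kb of one. Of those 1480, 829 (56.0%, 53.5 to 58.5) lay beside a region that their own library had also called, so that they were a separate piece next to a shared call. That share was 48.8% in WT condition 1, 54.8% in WT condition 2, 62.7% in deficient condition 1 and 56.7% in deficient condition 2. The nearest region of another library was itself a single-library region in 4644 cases (41.1%) and a region called in all 4 in 3020 (26.7%). Of all 23510 merged regions, 11302 (48.1%) were single-library and 5637 were called in all 4. The search left out the single-library regions of the member's own library. The shares of neighbours were not scaled for the regions available, so they do not describe a preference. At the other extreme, 480 single-library regions (4.25%) had no region of any kind within 200 kb. No matching values were taken for regions of 2 or more libraries, so these distances were not compared with theirs.

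Missing another library's island by 1 window was uncommon. Deposited starts fall on multiples of 200 bp, so the smallest possible distance above the joining rule is 201 bp, and 64 single-library regions lay at that distance. The 2 with the most reads among them were chromosome 4, 155065201 to 155072999, with 192 reads in WT condition 2, beside a deficient condition 2 island of 58 reads, and chromosome 2, 93248001 to 93257999, with 178 reads in deficient condition 1, beside a WT condition 1 island of 546 reads. Just beyond the rule, 9 of the 3871 regions built from 1 island of each of 2 libraries were held together by touching alone, and 40 shared 1 window. The touching regions of most reads were chromosome 2, 57067001 to 57077999, with 59 and 157 reads in the WT libraries, and chromosome 11, 55024601 to 55036799, with 112 reads in WT condition 1 and 84 reads in deficient condition 2. When islands within 2 kb were joined, 9805 of the 11302 (86.8%) were still called in 1 library only, 583 entered a region of 2 libraries, 300 a region of 3 and 614 a region of all 4.

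Single-library regions that joined 1 other library in this way did so in every combination. Of the 583, 162 fell into regions of the deficient pair and 85 into regions of the WT pair. The pairs of the same condition took 137 (condition 1) and 52 (condition 2), and the crossed pairs 89 (WT condition 1 with deficient condition 2) and 58 (WT condition 2 with deficient condition 1). The lists differ in length, and these counts were not scaled for it.

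With the target list held fixed, single-library regions of WT condition 1 lay farthest from the islands of each other library. Within 5 kb of an island of WT condition 2, the shortest list, were 10.8% of them (Wilson 95% interval 9.84 to 11.9), against 13.5% of the single-library regions of deficient condition 1 (12.4 to 14.7) and 13.5% of those of deficient condition 2 (12.1 to 15.1). Islands of WT condition 1 in turn lay within 5 kb of 15.8%, 15.2% and 15.6% of the single-library regions of WT condition 2, deficient condition 1 and deficient condition 2. Within 5 kb of WT condition 2 islands the WT partner thus had the lowest share. For WT condition 1 islands the shares lay close together, with overlapping intervals (14.3 to 17.4, 14.0 to 16.4 and 14.1 to 17.2). Islands of deficient condition 1 lay within 5 kb of 18.7% (17.1 to 20.4) of the single-library regions of deficient condition 2, 17.1% (15.5 to 18.7) of those of WT condition 2 and 14.5% (13.4 to 15.7) of those of WT condition 1. For islands of deficient condition 2 the shares were 16.8% (15.6 to 18.1) of those of deficient condition 1, 16.5% (15.0 to 18.1) of those of WT condition 2 and 12.2% (11.2 to 13.3) of those of WT condition 1. Within 5 kb, the intervals of the deficient partner and of WT condition 2 overlapped for both deficient target lists. Within 20 kb they did not: islands of deficient condition 1 were that near to 51.3% of the single-library regions of deficient condition 2 (49.1 to 53.4) and 46.6% of those of WT condition 2 (44.5 to 48.7), and islands of deficient condition 2 to 47.9% of those of deficient condition 1 (46.2 to 49.6) and 43.5% of those of WT condition 2 (41.5 to 45.6). The higher deficient shares at 20 kb were not particular to deficient targets, since they were also found for islands of WT condition 2. Islands of WT condition 2 were that near to 40.3% of the regions of deficient condition 1 (38.7 to 41.9), 40.1% of deficient condition 2 (38.0 to 42.3) and 34.6% of WT condition 1 (33.1 to 36.2). For islands of WT condition 1 the shares were 45.9% of deficient condition 1 (44.2 to 47.5), 44.8% of deficient condition 2 (42.7 to 47.0) and 43.3% of WT condition 2 (41.2 to 45.4). These last intervals overlapped. None of this was tested.

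Single-library regions lay farther from the regions called in all 4 libraries than other regions did when any shared base joined islands. The median distance was 65.4 kb for single-library regions, 48.2 kb for regions of 2 libraries, 48.2 kb for regions of 3, and 37.2 kb between regions called in all 4 themselves. Within 20 kb lay 25.4% of single-library regions (Wilson 95% interval 24.6 to 26.2), 29.96% of regions of 2 (28.6 to 31.4), 31.3% of regions of 3 (29.6 to 33.2) and 34.6% of regions of 4 (33.4 to 35.9). Few single-library regions lay close to a region called in all 4: 4.38% were within 2 kb of one and 9.37% within 5 kb. These shares were low in the other classes too: 5.73% and 10.7% for regions of 2 libraries, 6.80% and 12.4% for regions of 3, and 8.16% and 13.7% for regions of 4. By library the median distance was 73.8 kb in WT condition 1, 67.1 kb in WT condition 2, 57.8 kb in deficient condition 1 and 61.8 kb in deficient condition 2. With a reciprocal overlap of 50% required of a partner, the median of single-library islands was 35.2 kb. In that setting a single-library island can lie inside a region called in all 4, at distance 0, and the other classes have no matching value. Regions are not independent replicates, and these distances were not tested.

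**Figure D5:**
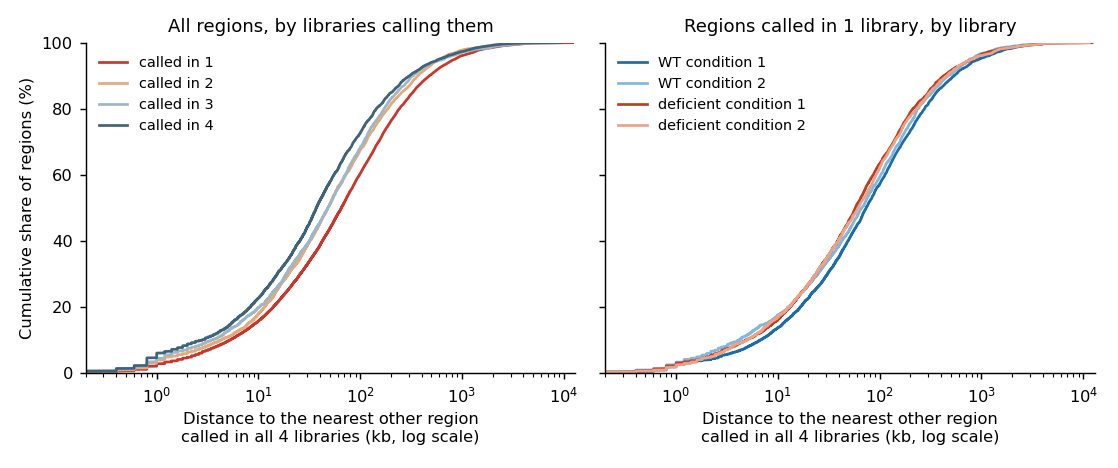
Cumulative share of regions (y axis, %) against the distance in kb to the nearest other region called in all 4 libraries (x axis, log scale), for regions by number of libraries (left) and for single-library regions by library (right). The curve of single-library regions lies to the right of the others, with a median of 65.4 kb against 48.2, 48.2 and 37.2 kb, and among libraries WT condition 1 lies farthest right at 73.8 kb.

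Reads changed little along this distance. Over all single-library regions the median was 57 reads within 5 kb of a region called in all 4, 56 reads at 5 to under 20 kb, 54 reads at 20 to under 100 kb, 52 reads at 100 to under 500 kb and 49 reads beyond. Density stayed between 19.6 and 20.4 reads per kb in these classes. The largest fall was in WT condition 1, from 58 to 47 reads. The farthest single-library regions all lay on chromosome X in the deficient libraries: 118440801 to 118442999 in condition 1, with 39 reads, was 12231 kb away, and 119457801 to 119460199 and 120160401 to 120162599 in condition 2, with 48 and 37 reads, were 11381 and 10679 kb away.

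Single-library regions were spread over all chromosomes in much the proportion of the other regions. They were 44.9% of the merged regions of chromosome 11 (Wilson 95% interval 42.7 to 47.1), the lowest share, and 52.8% of those of chromosome 12 (49.6 to 55.9), the highest, beside 48.1% genome-wide. Chromosome 11 held 9.38% of the regions called in all 4 but 7.70% of the single-library ones. Chromosome X gave the highest ratio of deficient to WT single-library regions in both conditions, 82 against 52 regions in condition 1 (1.58, exact 95% interval 1.101 to 2.277) and 45 against 31 in condition 2 (1.45, 0.899 to 2.37). The full lists moved in the same direction there, with 288 against 195 and 220 against 166 islands. Chromosome 4 stood at 0.699 (0.575 to 0.848) and 0.758 (0.590 to 0.971), and chromosome 5 gave the lowest value in condition 2, 0.621 (0.482 to 0.797). Of 20 chromosomes, 9 had a ratio below 1 in both conditions and 6 a ratio above 1 in both. These are the ends of 20 ratios in each condition, with no test.

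Along the chromosomes, single-library regions of WT condition 1 followed each other somewhat more often than their number alone gives. The next region was a single-library region of the same library in 18.0% of cases (Wilson 95% interval 16.8 to 19.3) in WT condition 1, which supplied 15.4% of all regions. In the other libraries the shares were 9.36% (8.21 to 10.7) in WT condition 2, 14.2% (13.1 to 15.5) in deficient condition 1 and 8.54% (7.41 to 9.83) in deficient condition 2, beside 9.27%, 14.7% and 8.77% of all regions, within the intervals. The longest run had 6 members, all of WT condition 1, on chromosome 4 between 153629601 and 154241399, with 42 to 120 reads each. Runs of 5 were found 9 times. The 2 of these with the most reads belonged to deficient condition 2: chromosome 17 between 45478601 and 45565399, where 5 separate regions of 51 to 114 reads were spread over 86.8 kb, and chromosome 1 between 43196201 and 43418799, with 39 to 112 reads each.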

How the data were processed

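Chromatin was immunoprecipitated with an mSin3A antibody, per the labels. The submitters' processing notes name FastQC, Bowtie2 2.2.5, SICER 1.1 and the build mm9. SICER builds islands from nearby windows of enriched signal. The settings it was run with, and what part the inputs played, were not given in the sources used. Each deposited list has no header. Its last column holds whole numbers and was read as the count of reads per island. These deposited counts were used as they are, with no scaling by depth, which is unknown. Island reads sum to 1792952 to 1917097 per list, with at least 16 to 23 reads in an island, which limits precision at low counts.

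Islands were joined when the next start minus the highest end was at most 1 bp. Width is the deposited end minus start, and distance is the start of the following region minus the end of the one before. Shares carry Wilson and ratios exact (Clopper-Pearson) 95% intervals. No test was run, since each group has 1 library. The members and measures were chosen with earlier results of these data known, and the comparisons at matched reads and between conditions were added after seeing the data. Named regions are, per library, the 3 of most reads, the 2 densest and the widest, and over all libraries the 3 farthest from a region called in all 4, the 3 longest runs (ties broken by reads) and the 2 of most reads on each side of the joining rule. Regions above 100 reads per kb, and the calls around the largest region, were chosen after their values were seen. The reference annotation is on GRCm38 and its coordinates were not used, so gene lists drawn up for the study went unused. Alternatives were other joining distances, a reciprocal overlap of 50%, shorter lists, islands of at least 1 kb, autosomes, reads scaled to equal totals, leaving out each library, and, added after seeing the data, leaving out both libraries of the other condition. The merging code was tested on simulated data, where all 2000 regions and 539 distances were recovered. Python 3.11.15, numpy 2.4.6, pandas 2.3.3 and scipy 1.17.1 were used.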

Additional observations from a re-analysis of the deposited data

Results flagged for a closer look

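Close to a region called in all 4 libraries, at the cuts of 2 and 5 kb, the order of the genotypes changed with the condition. This order did not change at 20 kb or by median distance, and no test was run on it. At 20 kb the condition 2 shares were nearly equal, 26.6% in WT and 26.8% in deficient cells. Within 2 kb of such a region lay 3.79% of the single-library regions of WT and 4.41% of those of deficient cells in condition 1, a difference of 0.621 percentage points, and 5.32% against 4.37% in condition 2, a difference of -0.954 points. Within 5 kb the difference, deficient minus WT, was 2.32 points in condition 1 (7.58% and 9.90%) and -1.49 points in condition 2 (11.2% and 9.70%).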

How the results depend on the processing

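The lists fix what can be seen: a region missing from a list has an unknown number of reads there, total depth is unknown, and each group is 1 library. No paired analysis was possible because no value comes from a test; the genotypes were compared by their values within each condition. The 11302 single-library regions became 19941 when a partner had to overlap reciprocally by 50%, 2778 in the upper 50% of each list and 7445 in lists of equal length, in which WT condition 2 keeps every island and the others only their richer ones. Leaving out 1 library gave 9334 to 12138. The median of 53 reads was 52 with joining within 5 kb, 62 with reciprocal overlap, 128 in the upper 50%, 71 in equal lists, 55 for islands of at least 1 kb, and 53 to 61 with 1 library left out. The median distance of 65.4 kb was 73.4 and 85.2 kb with joining within 2 and 5 kb, and 35.2 kb with reciprocal overlap. It was 81.5 kb in the upper 50% and 61.6 kb in equal lists, where the target regions came from the islands kept. With 1 library left out, the target was regions called in every remaining library, and the median was 47.4 to 57.4 kb. A changed target moves the distance by construction, so these values do not measure the same distance as the 65.4 kb.

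The deficient over WT ratio of condition 1 was 0.882 with joining within 5 kb, 1.15 with reciprocal overlap, 1.31 in the upper 50%, 0.494 in equal lists, and 0.878 to 1.47 with 1 library left out. That of condition 2 was 1.13 with reciprocal overlap, 1.18 in the upper 50%, 0.490 in equal lists, and 0.805 to 1.68 with 1 library left out. The condition 1 over condition 2 ratio was 1.45 in WT and 1.47 in deficient cells with reciprocal overlap, 1.85 and 2.07 in the upper 50%, 0.822 and 0.830 in equal lists, and 1.55 in deficient cells for islands of at least 1 kb. At 60 to 79 reads the WT minus deficient difference was 13.5 points in condition 1 with joining within 5 kb, 10.6 and 9.23 points with reciprocal overlap, 19.9 points in condition 2 with reads scaled to equal totals, -1.90 to 23.5 points in condition 1 and -7.09 to 24.2 points in condition 2 with 1 library left out. In equal lists, which cut a part of this class from the deficient lists, it was 20.6 points in condition 1. In the upper 50% the class lies below the islands kept, so no value was taken there. Leaving out both libraries of the other condition was added after seeing the data, and it moves both values by construction. The difference was then -1.61 and -1.36 points, and the deficient over WT ratio was 1.44 and 1.57. The causes of these changes were not tested.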
